A study of Mus musculus with 8 samples.

Results

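The genes of oxidative phosphorylation were taken from the table of counts per gene by their symbols. A gene was a member if its symbol started with Ndufa, Ndufb, Ndufc, Ndufs, Ndufv, Uqcr, Cox4, Cox5, Cox6, Cox7, Cox8, Atp5, mt-Nd, mt-Co, mt-Atp or mt-Cytb, or was Sdha, Sdhb, Sdhc, Sdhd or Cyc1, and pseudogene symbols with -ps and the Ndufaf assembly factors were left out. This gave 104 of 54188 genes, of which 91 are encoded in the nucleus and 13 in the mitochondrial chromosome. The annotation calls 4 of the nuclear members processed pseudogenes (Ndufa11b, Ndufb4c, Ndufs6b and Cox6c2), and Atp5o has 2 gene IDs. The nuclear members are 39 of complex I, 4 of complex II, 9 of complex III, 21 of complex IV and 18 of complex V, with Ndufa4 and Ndufa4l2 counted in complex IV. The mitochondrial members are 7 genes of complex I, 1 of complex III, 3 of complex IV and 2 of complex V.

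The respiratory chain passes electrons from NADH (complex I) or succinate (complex II) through ubiquinone, complex III and cytochrome c to oxygen at complex IV, and complexes I, III and IV pump protons across the inner mitochondrial membrane. Complex V, the ATP synthase, uses that proton gradient to make ATP. Complexes I, III, IV and V are built from subunits of both genomes, whereas complex II is wholly nuclear. Mature neutrophils are known for few mitochondria and a reliance on glycolysis, whereas dividing progenitors and monocytes respire more.

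RNA was sequenced from CD11b+Gr-1hi and CD11b+Gr-1lo myeloid cells sorted from the spleen (SP) and bone marrow (BM) of sanroque mice, which are homozygous for the san allele of Roquin on a C57BL/6 background and develop lupus-like autoimmunity. Mice were labelled female and 20 weeks old, and all 4 groups carry the mutation, so that no wild-type library is part of the comparison. Each group has 2 libraries, numbered by their labels as 5 and 6 (SP Gr-1hi), 7 and 8 (SP Gr-1lo), 9 and 10 (BM Gr-1hi) and 11 and 12 (BM Gr-1lo). The labels call the Gr-1hi cells G-MDSC and the Gr-1lo cells M-MDSC and give no link between libraries of the same mouse. The p-values rest on the spread between the 2 libraries of a group, estimated over all 4 groups together. That spread was not alike. The chi-square per degree of freedom, which sets the distance between 2 libraries against counting error, was 74.3 in SP Gr-1hi and 20.7 to 23.7 in the other groups. The shared estimate may thus be too small for SP Gr-1hi cells, and p-values there too low. All groups are defined by surface staining alone, which can gate a mixture of stages and cell types.

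The libraries held 33453580 to 68316154 counts on genes. Values are CPM, the counts of a gene relative to the total of its library, after scaling with the TMM factors of edgeR, which were 0.724 to 0.863 in the Gr-1hi and 1.26 to 1.30 in the Gr-1lo libraries. Itgam, which encodes CD11b, was at 2739 to 4904 CPM in Gr-1hi and 734 to 983 in Gr-1lo cells. Ly6g, a neutrophil surface protein, was at 330 to 801 and 3.07 to 8.23 CPM, and Csf1r, the CSF1 receptor of monocytes and macrophages, at 133 to 375 and 436 to 754 CPM. Counts of Xist, which is transcribed from the inactive X chromosome, were 12032 in library 5 and 9898 in library 7, and the other 6 libraries had no more than 5, whereas the Y-linked Ddx3y had 0 counts in library 5 and 33.7 to 82.6 CPM in the other 7. These libraries go against a single labelled sex, library 7 held both transcripts, and values without libraries 5 and 7 are given with the counts of calls.

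The clearest difference in this gene set was between the Gr-1 subsets. Both genomes' members were lower in Gr-1hi than in Gr-1lo cells, and the mitochondrial transcripts were lower by the larger factor. Summed over the 13 mitochondrial genes, CPM was 4971 and 6670.2 in BM Gr-1hi, 8285 and 7103 in SP Gr-1hi, 20721 and 18358 in BM Gr-1lo, and 18446 and 21071 in SP Gr-1lo cells. All Gr-1hi libraries lay below all Gr-1lo libraries, and the SP Gr-1hi libraries lay above those of BM Gr-1hi. In bulk RNA, fewer cells of a type and less RNA per cell cannot be told apart.

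Summed over the 91 nuclear genes, CPM was 3222 and 3479 in BM Gr-1hi, 2745 and 3023 in SP Gr-1hi, 5743 and 6247 in BM Gr-1lo, and 5367 and 5337 in SP Gr-1lo cells. After TMM, SP lay below BM in both subsets, with no overlap of the 2 libraries per group. In Gr-1hi cells that order depended on the scaling, since without TMM the nuclear sum was 2366 and 2478 CPM in SP and 2359 and 2519 in BM, which overlap, and the mean TPM sum was 1.03-fold that of BM. In means, the mitochondrial sum was 3.36-fold lower in Gr-1hi than in Gr-1lo cells of BM and 2.57-fold lower in SP, against 1.79-fold and 1.86-fold for the nuclear sum. Without TMM, the mitochondrial members took 0.364% to 0.714% of all counts in Gr-1hi and 2.31% to 2.70% in Gr-1lo libraries, and the nuclear members 0.236% to 0.252% and 0.674% to 0.785%. The direction between subsets was thus the same on both scales, and the distance was larger on totals.

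The ratio of the mitochondrial to the nuclear sum does not depend on the scaling of a library. It was 1.54 and 1.92 in BM Gr-1hi, 3.02 and 2.35 in SP Gr-1hi, 3.61 and 2.94 in BM Gr-1lo, and 3.44 and 3.95 in SP Gr-1lo cells. The BM Gr-1hi libraries were below all other libraries, whereas the ranges of the SP Gr-1hi and BM Gr-1lo groups overlapped. In the Gr-1hi subset the mean ratio was 1.73 ± 0.264 (SD, n = 2) in BM and 2.68 ± 0.473 (SD, n = 2) in SP. In the Gr-1lo subset it was 3.27 ± 0.473 (SD, n = 2) in BM and 3.69 ± 0.362 (SD, n = 2) in SP, and the libraries overlapped. Of the SP libraries without Xist, library 6 had a ratio of 2.35 and library 8 one of 3.95.

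**Figure D1:**
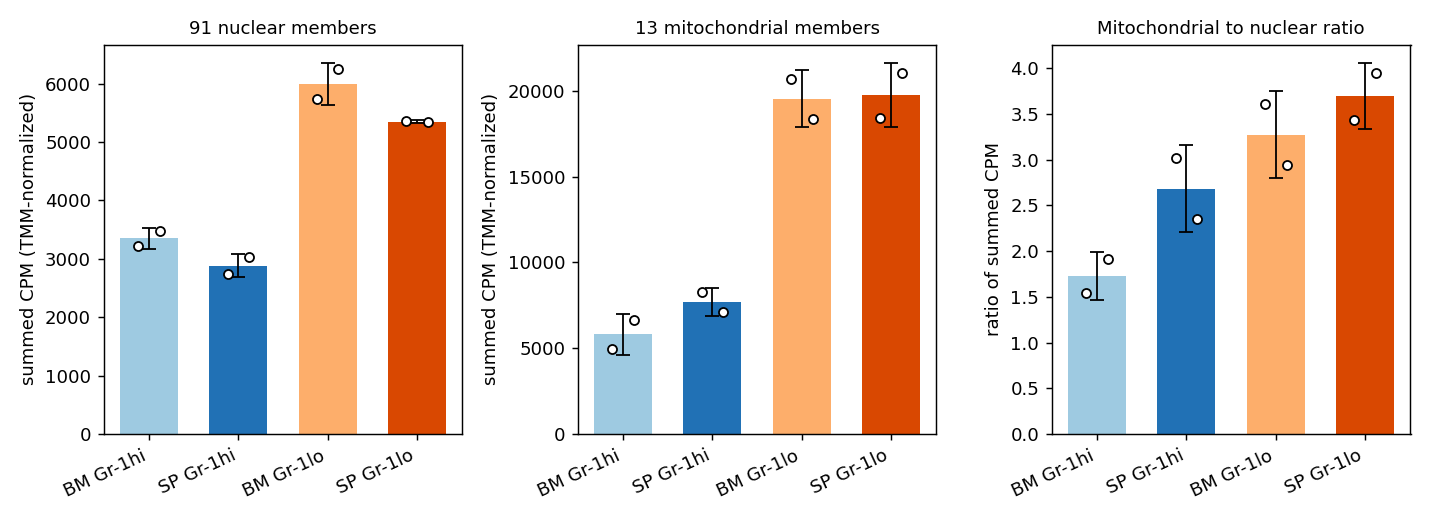
Summed CPM of the 91 nuclear and the 13 mitochondrial members (TMM-normalized) and the ratio of both sums in each group; bars are means, error bars the SD of 2 libraries and points single libraries. Both sums are lower in Gr-1hi than in Gr-1lo cells, and the ratio in BM Gr-1hi cells (1.54 and 1.92) is below that of every other library.

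The first comparison asks how the Gr-1hi and Gr-1lo subsets of the BM differ. For the tests, 17650 genes passed the filter on low counts, among them all 13 mitochondrial and 82 of the 91 nuclear members. A member was called at an adjusted p of at most 0.05 in the quasi-likelihood test of edgeR, with p-values adjusted after Benjamini and Hochberg over all genes tested. In BM, all 13 mitochondrial and 68 of 82 nuclear members were lower in Gr-1hi cells and 2 nuclear members were higher. Of all genes tested, 41.2% were lower and 34.5% higher. The median log2 fold change (FC) was -2.17 over the mitochondrial members, -0.86 over the nuclear members and -0.17 over all genes tested. RLE scaling, which uses the size factors of DESeq2, put the median of all genes at -0.03. Without libraries 5 and 7, 13 mitochondrial members were lower, and 69 nuclear members were lower and 2 higher. At the thresholds of the study (adjusted p below 0.01 and FC above 8), 3 mitochondrial and 0 nuclear members were lower, beside 10.1% of all genes.

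Among the mitochondrial genes, mt-Nd1, mt-Nd2 and mt-Nd3 of complex I had the largest decreases in BM Gr-1hi cells. mt-Nd1 (chrM:2751-3707, plus strand, GRCm38), a core membrane subunit of complex I, was at 99.8 and 118 CPM in BM Gr-1hi, 291 and 223 in SP Gr-1hi, 1023 and 946 in BM Gr-1lo, and 816 and 987 in SP Gr-1lo cells. mt-Nd2 (chrM:3914-4951), from the same arm of the complex, was at 49.9 and 53.1, 163 and 126, 471 and 413, and 431 and 479 CPM in the same order of groups. In both genes BM Gr-1hi was lowest, SP Gr-1hi came next, and the Gr-1lo groups overlapped. In BM, the log2 FC of Gr-1hi against Gr-1lo was -3.18 for mt-Nd1 (SE 0.166, edgeR adjusted p = 5.16e-07) and -3.10 for mt-Nd2 (SE 0.144, edgeR adjusted p = 3.17e-07), and mt-Nd3 was 8.03-fold lower (edgeR adjusted p = 4.13e-07).

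mt-Co1 (chrM:5328-6872), the catalytic subunit of complex IV, was at 2161 and 3057 CPM in BM Gr-1hi, 3216 and 2797 in SP Gr-1hi, 6594 and 5984 in BM Gr-1lo, and 6135 and 6969 in SP Gr-1lo cells. The subsets did not overlap, but the tissues did within each subset. Its log2 FC in BM was -1.27 (SE 0.170, edgeR adjusted p = 0.000140). mt-Cytb (chrM:14145-15288), the only complex III subunit of this genome, was at 248 and 285 CPM in BM Gr-1hi, 464 and 389 in SP Gr-1hi, 1245 and 1148 in BM Gr-1lo, and 1176 and 1299.99 in SP Gr-1lo cells. mt-Atp6, the channel subunit of complex V, was at 599 and 832, 1106 and 941, 3035 and 2579.8, and 2639.9 and 3002 CPM in the same order. For both genes SP Gr-1hi stood above BM Gr-1hi, far below the Gr-1lo groups, which overlapped.

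The log2 FC in BM was -2.64 for mt-Nd5, -2.29 for mt-Nd4l, -2.28 for mt-Nd6, -2.17 for mt-Cytb, -2.05 for mt-Atp8, -2.02 for mt-Nd4, -1.97 for mt-Atp6, -1.91 for mt-Co3 and -1.50 for mt-Co2. mt-Nd6, the only one of these genes on the other strand, was at 0.972 to 6.67 CPM over the 8 libraries. mt-Atp8 overlaps mt-Atp6, and mt-Nd4l overlaps mt-Nd4, so those pairs share sequence.

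**Figure D2:**
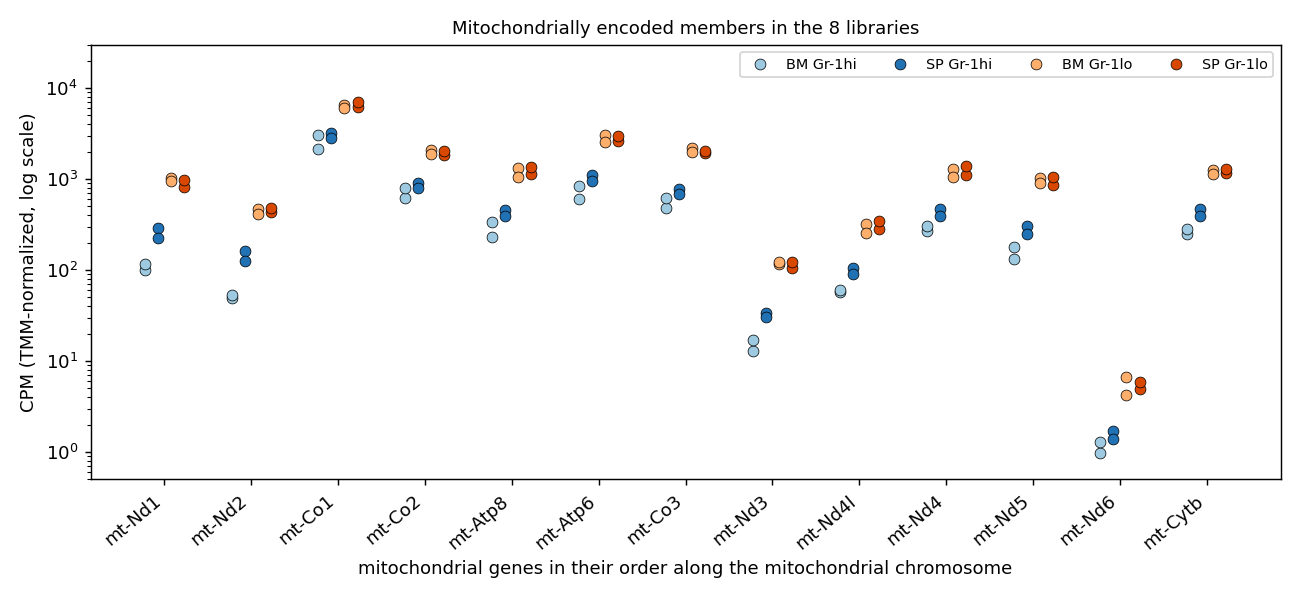
CPM (TMM-normalized, log axis) of the 13 mitochondrial members in their order along the chromosome; each point is 1 library, coloured by group. For mt-Nd1, mt-Nd2 and mt-Nd3 the BM Gr-1hi points lie well below those of SP Gr-1hi, whereas for mt-Co1 (2161 and 3057 against 3216 and 2797 CPM) they overlap.

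The mitochondrial genes thus did not move by 1 common factor. The ratio of summed CPM of the mitochondrial complex I genes to that of the complex IV genes was 0.191 and 0.163 in BM Gr-1hi, 0.280 and 0.260 in SP Gr-1hi, 0.390 and 0.374 in BM Gr-1lo, and 0.365 and 0.397 in SP Gr-1lo cells. BM Gr-1hi was lowest and SP Gr-1hi second, with no overlap between them or with the Gr-1lo groups, and the latter overlapped each other. The same ratio over the nuclear genes was 1.43 and 1.47 in BM Gr-1hi, 1.25 and 1.30 in SP Gr-1hi, 1.41 and 1.43 in BM Gr-1lo, and 1.32 and 1.35 in SP Gr-1lo cells. The nuclear ratio followed the tissue, with both SP groups below both BM groups. mt-Nd2 had 2.31% and 1.74% of the CPM of mt-Co1 in BM Gr-1hi and 5.06% and 4.50% in SP Gr-1hi cells, against 6.87% to 7.14% in the Gr-1lo libraries.

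**Figure D3:**
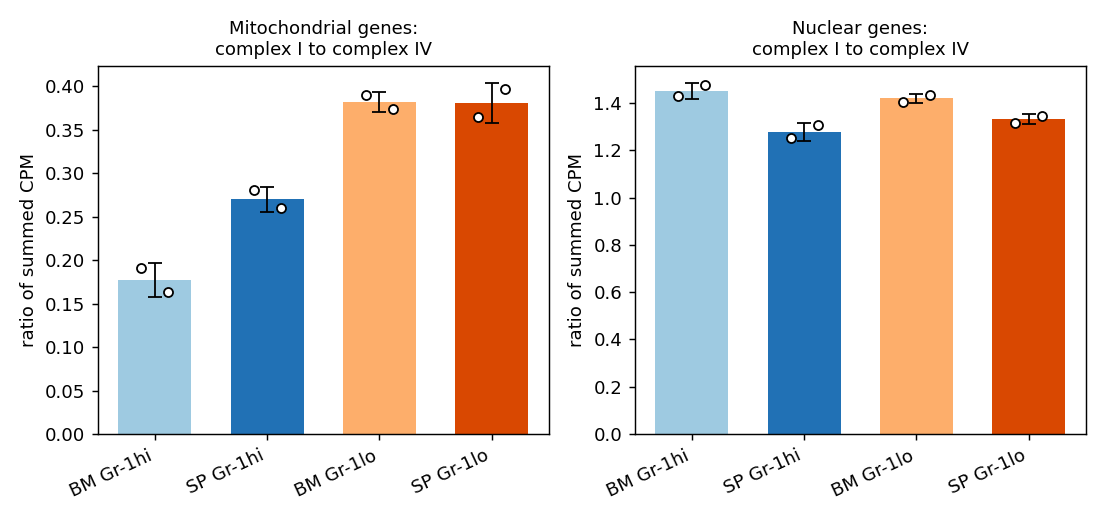
Ratio of summed CPM of complex I to complex IV genes, for the mitochondrial (left) and the nuclear members (right); bars are means, error bars the SD of 2 libraries and points single libraries. The mitochondrial ratio is 0.163 and 0.191 in BM Gr-1hi cells and 0.365 to 0.397 in Gr-1lo cells, whereas the nuclear ratio is 1.25 to 1.47 over all 8 libraries.

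Several mitochondrial genes have a copy in the nuclear genome, and the table lists both. A block of chromosome 1 on GRCm38 holds 7 annotated copies. Those of mt-Co2, mt-Atp6, mt-Co3, mt-Nd3, mt-Nd4l and mt-Nd4 were identical to the mitochondrial sequence over 100% of the aligned bases, and that of mt-Co1 had 1 mismatch in 483 bases. The start of mt-Nd3 and of its copy Gm28438 are shown since a read from within such a stretch fits both places equally. Each is 150 bases in the direction of the gene, chrM:9462-9611 on the plus strand and chr1:24612967-24613116 on the minus strand.
mt-Nd3: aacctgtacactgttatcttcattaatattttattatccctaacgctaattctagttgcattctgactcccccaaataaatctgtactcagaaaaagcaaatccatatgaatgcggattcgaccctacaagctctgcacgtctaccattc
Gm28438: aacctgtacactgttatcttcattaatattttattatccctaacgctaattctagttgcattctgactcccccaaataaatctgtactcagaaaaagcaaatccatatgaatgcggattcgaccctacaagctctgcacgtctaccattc
The count of the copy was 100.1% to 100.3% of that of the gene for mt-Co2, 94.8% to 100.4% for mt-Nd3 and 99.0% to 99.5% for mt-Nd4l over the 8 libraries. It was lower for the partial copies of mt-Co1 (27.0% to 37.5%) and mt-Nd4 (53.1% to 61.2%). The genes mt-Nd1, mt-Nd2, mt-Nd5, mt-Nd6 and mt-Cytb have no copy among these 7, so the values of mt-Nd1 and mt-Nd2 do not rest on shared sequence there. mt-Atp8 (chrM:7766-7969) has no annotated copy of its own among them. Its end overlaps mt-Atp6 (chrM:7927-8607), whose copy matched from base 1, so that part is shared with the copy.

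The nuclear members were called lower in BM Gr-1hi cells in every complex, with 26 of 37 tested in complex I, 4 of 4 in complex II, 9 of 9 in complex III, 13 of 14 in complex IV and 16 of 18 in complex V. The 3 genes that encode the same mature subunit c, the ring of the ATP synthase that turns with the proton flow, are given first. Atp5g1 was at 7.89 and 7.51 CPM in BM Gr-1hi, 7.26 and 7.72 in SP Gr-1hi, 49.8 and 53.3 in BM Gr-1lo, and 40.9 and 44.5 in SP Gr-1lo cells. Atp5g2 was at 15.4 and 17.0, 19.3 and 20.6, 85.5 and 92.3, and 85.6 and 79.1 CPM, and Atp5g3 at 27.3 and 36.0, 26.8 and 28.7, 89.8 and 99.5, and 81.4 and 87.8 CPM in the same order. All 3 genes separated the subsets without overlap, and Atp5g1 did so by the largest factor of all nuclear members in BM. The log2 FC in BM was -2.74 for Atp5g1 (SE 0.105, edgeR adjusted p = 1.63e-07), -2.46 for Atp5g2 (SE 0.102, edgeR adjusted p = 2.07e-07) and -1.58 for Atp5g3 (SE 0.136, edgeR adjusted p = 8.29e-06).

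Per length, Atp5g1 was the lowest of the 3 in every group. In TPM, in which counts are divided by gene length and scaled to the same total in each library, it was at 2.63 ± 0.185 in BM Gr-1hi and 32.3 ± 1.12 in BM Gr-1lo cells (SD, n = 2). Atp5g2 was at 16.2 ± 0.524 and 163 ± 6.66 TPM and Atp5g3 at 24.2 ± 3.85 and 134 ± 8.00 TPM in these groups. In TPM, Atp5g3 was thus above Atp5g2 in BM Gr-1hi and below it in BM Gr-1lo cells. In mean CPM it was above Atp5g2 in both (31.7 against 16.2 and 94.7 against 88.9). The order in TPM therefore rests on the lengths used, which count all annotated exons of a gene (1675 bases for Atp5g2 and 2181 for Atp5g3). Over all members, the median TPM of the 13 mitochondrial genes was 338 and 359 in BM Gr-1hi, 749 and 583 in SP Gr-1hi, and 2903 to 3324 in the Gr-1lo libraries. The median of the 91 nuclear genes was 25.7 to 27.0 in the Gr-1hi and 85.1 to 102 in the Gr-1lo libraries, so the mitochondrial median was above the nuclear one in every library. mt-Nd6 was an exception, at 3.21 to 6.92 TPM in the Gr-1hi and 25.5 to 39.2 in the Gr-1lo libraries.

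The promoters of the subunit c genes are shown because these genes encode 1 protein from 3 loci that differ in FC. Each is 250 bases before to 50 after the start of the gene, from RefSeq (GRCm38.p6), all on the minus strand, with matches to GCGCATGC, the core of the motif of the factor NRF1, in capitals. They lie at chr11:96075582-96075881 (Atp5g1), chr15:102670998-102671297 (Atp5g2) and chr2:73911277-73911576 (Atp5g3).
Atp5g1: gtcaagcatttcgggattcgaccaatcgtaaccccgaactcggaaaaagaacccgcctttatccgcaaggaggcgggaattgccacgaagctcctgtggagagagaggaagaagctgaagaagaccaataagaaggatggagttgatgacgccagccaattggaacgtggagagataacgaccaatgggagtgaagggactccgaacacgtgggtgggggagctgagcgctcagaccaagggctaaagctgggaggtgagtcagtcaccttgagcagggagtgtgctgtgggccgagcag
Atp5g2: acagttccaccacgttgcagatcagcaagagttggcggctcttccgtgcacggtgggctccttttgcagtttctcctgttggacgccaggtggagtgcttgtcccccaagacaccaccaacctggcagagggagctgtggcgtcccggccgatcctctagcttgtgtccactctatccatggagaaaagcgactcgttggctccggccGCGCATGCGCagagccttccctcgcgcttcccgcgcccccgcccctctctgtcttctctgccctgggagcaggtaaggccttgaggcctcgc
Atp5g3: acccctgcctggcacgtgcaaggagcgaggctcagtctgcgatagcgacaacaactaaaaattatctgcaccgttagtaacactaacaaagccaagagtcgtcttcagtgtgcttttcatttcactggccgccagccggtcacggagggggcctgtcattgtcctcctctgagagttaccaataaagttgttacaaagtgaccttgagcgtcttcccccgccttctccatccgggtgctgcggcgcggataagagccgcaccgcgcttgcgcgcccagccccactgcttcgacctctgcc
Atp5g2 held the core on both strands, overlapping, and the windows of Atp5g1 and Atp5g3 did not hold it. A promoter was matched for 66 of the 81 symbols of tested nuclear members, and 4 motifs were searched in them on both strands. GCGCATGC was found in 10 of 66 members (15.2%) and in 3.05% of the 27025 genes with a promoter. The ETS motif CCGGAAGT was found in 5 members (7.58%) and 4.31% of all genes, the YY1 core AAGATGGC in 10 members (15.2%) and 3.19% of all genes, and TATAAA in 6 members (9.09%) and 15.7% of all genes. These are matches of letters in a window of 300 bases, not sites.

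The lowest log2 FC of a nuclear complex I gene in BM was that of Ndufa5 (chr6:24518666-24528013, minus strand), an accessory subunit, at -2.49 (SE 0.202, edgeR adjusted p = 5.71e-06). It was at 1.87 and 2.85 CPM in BM Gr-1hi, 2.23 and 2.46 in SP Gr-1hi, 12.5 and 13.9 in BM Gr-1lo, and 11.8 and 10.9 in SP Gr-1lo cells, and the subsets did not overlap. Uqcrc1, a core protein of complex III, was at 67.5 and 67.8 CPM in BM Gr-1hi, 52.8 and 59.9 in SP Gr-1hi, 146 and 154 in BM Gr-1lo, and 129 and 128 in SP Gr-1lo cells. The groups did not overlap, and the SP group lay below the BM group in each subset.

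Atp5b, the catalytic beta subunit of complex V and its most abundant nuclear member in CPM, was at 249 and 255 in BM Gr-1hi, 215 and 236 in SP Gr-1hi, 549 and 599.9 in BM Gr-1lo, and 496 and 489 in SP Gr-1lo cells. Cox4i1, the common form of subunit 4 of complex IV, was at 111 and 114, 92.9 and 102, 172 and 181, and 173 and 161 CPM in the same order. Atp5b separated all 4 groups, whereas Cox4i1 overlapped between the tissues in Gr-1lo cells. The log2 FC in BM was -1.19 for Atp5b, -1.15 for Uqcrc1 and -0.65 for Cox4i1.

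Complex II, which has no mitochondrially encoded subunit, was the complex with the smallest nuclear median in BM (-0.47, 4 genes). Sdha, the flavoprotein that oxidizes succinate, was at 106 and 102 CPM in BM Gr-1hi, 111 and 107 in SP Gr-1hi, 147 and 157 in BM Gr-1lo, and 134 and 133 in SP Gr-1lo cells. Its subsets did not overlap, and the distance was small. The log2 FC in BM was -0.55 for Sdha, -0.39 for the iron-sulfur subunit Sdhb, -1.34 for the membrane anchor Sdhc and -0.30 for the anchor Sdhd. The calls of Sdhd in both tissues, of Sdha in SP and of Cox7a2l, which bridges complexes III and IV in supercomplexes, in SP were lost under RLE scaling.

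Not all nuclear members were lower in BM Gr-1hi cells. Ndufv3 (chr17:31520115-31531331, plus strand), an accessory subunit at the NADH-oxidizing end of complex I, was at 54.7 and 64.6 CPM in BM Gr-1hi, 24.7 and 38.1 in SP Gr-1hi, 32.8 and 32.1 in BM Gr-1lo, and 29.8 and 31.2 in SP Gr-1lo cells. BM Gr-1hi stood above the other groups, and the range of SP Gr-1hi covered both Gr-1lo groups. Its log2 FC in BM was 0.88 (SE 0.182, edgeR adjusted p = 0.00221). Ndufb7, another accessory subunit, was at 70.8 and 76.0 CPM in BM Gr-1hi, 46.7 and 57.8 in SP Gr-1hi, 52.9 and 58.6 in BM Gr-1lo, and 49.96 and 50.2 in SP Gr-1lo cells, with a log2 FC in BM of 0.40 (SE 0.116, edgeR adjusted p = 0.0129). A further 12 nuclear members were not called in BM, namely Ndufs1, Ndufs4, Ndufs5, Ndufb9, Ndufa1, Ndufa3, Ndufa7, Ndufa8, Ndufa13, Atp5l, Atp5pb and Cox6c2. The number called higher was 5 under RLE scaling and the number called lower 62, with 75.7% of all genes called in either direction under both scalings.

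**Figure D4:**
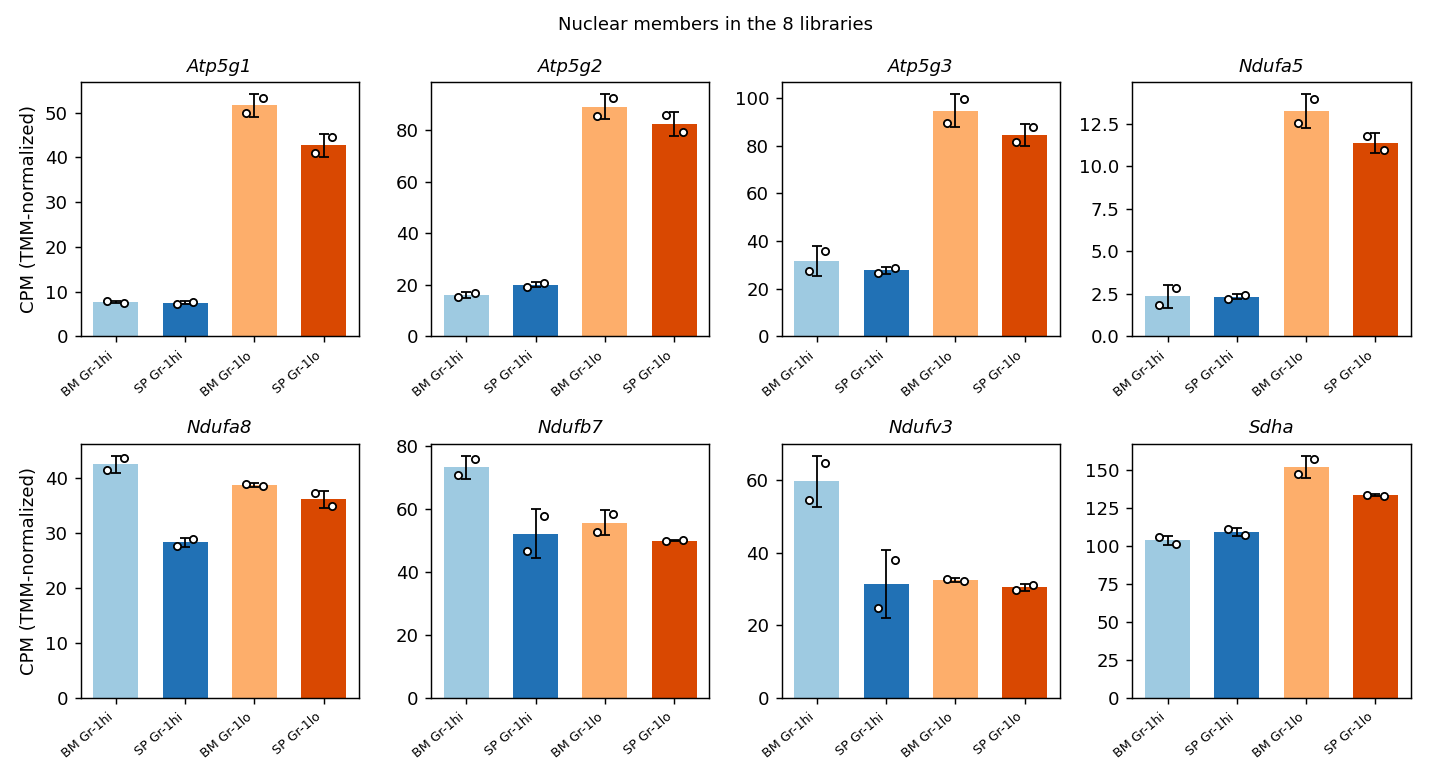
CPM (TMM-normalized) of 8 nuclear members in each group; bars are means, error bars the SD of 2 libraries and points single libraries. The genes for subunit c (Atp5g1 to Atp5g3) and Ndufa5 are low in both Gr-1hi groups, whereas Ndufv3 and Ndufb7 are highest in BM Gr-1hi cells and Ndufa8 is lowest in SP Gr-1hi cells.

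The same comparison in SP gave 13 of 13 mitochondrial and 72 of 82 nuclear members lower in Gr-1hi cells and 0 higher at the same threshold. Of all genes tested, 37.8% were lower and 33.6% higher. At an unadjusted p under 0.05, edgeR had 0 nuclear members higher, beside 34.7% of all genes, and DESeq2 called 0. The median log2 FC was -1.55 over the mitochondrial, -0.98 over the nuclear members and -0.09 over all genes tested (0.04 under RLE scaling). By complex, 29 of 37 nuclear members of complex I, 4 of 4 of complex II, 9 of 9 of complex III, 13 of 14 of complex IV and 17 of 18 of complex V were lower. Without libraries 5 and 7, the counts were 13 mitochondrial and 63 nuclear members lower, and the medians -1.85 and -0.92.

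Cox6b2, a form of subunit 6b known from testis, had a log2 FC of -2.68 in SP (SE 0.509, edgeR adjusted p = 0.00142), which was -2.11 without library 5 and -3.66 without library 6. Its rank as the largest decrease rested on library 5, without which Atp5g1 had the larger decrease (-2.49). Cox6b2 was at 0.449 and 1.16 CPM in BM Gr-1hi, 0.151 and 0.447 in SP Gr-1hi, 4.32 and 3.51 in BM Gr-1lo, and 1.86 and 1.95 in SP Gr-1lo cells, and no group of the Gr-1hi subset reached a Gr-1lo library. Atp5g1 had a log2 FC of -2.51 and Ndufa5 one of -2.27 in SP. For mt-Nd1 it was -1.81, for mt-Nd2 -1.66 and for mt-Co1 -1.12. The other forms known from muscle, lung, testis or hypoxia were near 0: Cox7b2, Cox8b and Cox8c had 0 counts in all 8 libraries, and Cox4i2, Cox6a2, Cox7a1 and Ndufa4l2 did not pass the filter, with at most 0.248 CPM. With 0 counts, a level of 3 counts cannot be told from absence, which is 0.0439 to 0.0897 CPM without TMM over the libraries, for counting error only.

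Marker lists moved with the subsets in both tissues. Of all genes tested, 34.5% were higher and 41.2% lower in Gr-1hi cells of BM, and 33.6% and 37.8% in those of SP. All 16 listed cell cycle genes were lower in Gr-1hi cells, with summed CPM of 408 to 685 in the Gr-1hi and 2501 to 3422 in the Gr-1lo libraries. All 6 primary granule genes were lower (18.8 to 52.2 against 1216 to 3318), all 8 mature neutrophil genes were higher (26261 to 33077 against 1322 to 1465), and 7 of 8 monocyte genes in BM and 8 of 8 in SP were lower (1050 to 1754 against 6546 to 9909). None of these markers was at 0 in a group. Many markers of B cells, T cells and splenic macrophages were higher in Gr-1hi cells as well. In SP these were 14 of 14 B cell markers (435 to 631 against 86.6 to 112 CPM), 11 of 12 T cell markers (93.6 to 152 against 32.4 to 50.03) and 8 of 10 splenic macrophage markers (926 to 1084 against 185 to 196). In BM they were 10 of 14 B cell markers, with 2 lower (34.1 to 36.8 against 21.8 to 25.7), 6 of 12 T cell markers (7.93 to 10.9 against 2.36 to 2.57) and 7 of 10 splenic macrophage markers, with 1 lower (588 to 648 against 128 to 156, with Marco at 0 in BM Gr-1lo). Plasma cell and NK cell markers were lower in Gr-1hi cells in sum. For plasma cells the sums were 105 to 108 against 438 to 452 in BM (0 of 9 tested higher, 5 lower). They were 314 to 430 against 473 to 502 in SP (3 higher, 1 lower). For NK cells they were 4.87 to 5.23 against 48.7 to 67.9 in BM (3 of 10 higher, 2 lower). In SP they were 21.6 to 29.9 against 47.0 to 56.6 (4 higher, 2 lower). The shares of NK cell markers called higher, and of plasma cell markers called higher in SP, were near those of all genes. The part of the marker lists in the differences of the members was not tested.

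The second question is how SP cells differ from BM cells of the same subset. Between SP Gr-1lo and BM Gr-1lo cells, 0 of 82 nuclear and 0 of 13 mitochondrial members were called in either direction by edgeR, beside 4.88% of all genes higher and 0.697% lower. At an unadjusted p under 0.05, 14 nuclear members were lower and 0 higher and 0 mitochondrial members passed, beside 8.32% of all genes lower and 11.8% higher. DESeq2 called 4 nuclear members lower, beside 9.07% of all genes called in either direction. The fitted log2 FC was below 0 for 76 of 82 nuclear members, against 51.7% of all genes tested, with a median of -0.16. The SP libraries lay below the BM libraries without overlap for 56 of the 82 and above them for 1, against 32.5% and 27.1% of all genes. The mitochondrial median was 0.01, and 0 of 13 genes separated the libraries. The largest nuclear values in Gr-1lo cells were -1.04 for Cox6b2 and 0.54 for Cox6c2, which was named after its values were seen, and neither was called. There were also 0 calls without libraries 5 and 7, and the nuclear median was then -0.17.

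Between SP Gr-1hi and BM Gr-1hi cells, 9 of 13 mitochondrial members were higher in SP and 0 lower, and of the nuclear members 14 of 82 were lower and 1 was higher. Of all genes tested, 20.1% were higher and 13.9% lower, so that the share of nuclear members lower was near that of all genes. The mitochondrial sum was higher in SP with and without TMM (1.32-fold and 1.53-fold), whereas the nuclear sum was 0.861 of that in BM with TMM and 0.993 without. The median log2 FC was 0.58 over the mitochondrial and -0.24 over the nuclear members, against 0.03 over all genes. The fitted value was above 0 for 13 of 13 mitochondrial and below 0 for 74 of 82 nuclear members, against 51.9% and 48% of all genes. At the threshold of the study (FC of at least 2), 3 mitochondrial members (mt-Nd1, mt-Nd2 and mt-Nd3) and 0 nuclear members were higher, beside 14% of all genes.

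The increase was again largest in complex I genes. The log2 FC of SP against BM in Gr-1hi cells was 1.49 for mt-Nd2 (SE 0.136, edgeR adjusted p = 0.000266), 1.24 for mt-Nd1 (SE 0.155, edgeR adjusted p = 0.000914) and 1.11 for mt-Nd3 (SE 0.143, edgeR adjusted p = 0.00103). mt-Nd3 was at 13.01 and 17.1 CPM in BM Gr-1hi and 34.2 and 30.8 in SP Gr-1hi cells, and neither it nor mt-Nd1 or mt-Nd2 overlapped between the tissues. mt-Nd5 (0.84), mt-Nd4l (0.74), mt-Cytb (0.68), mt-Atp8 (0.58), mt-Nd4 (0.58) and mt-Atp6 (0.52) were also called. The complex IV genes mt-Co3 (0.40), mt-Co2 (0.24) and mt-Co1 (0.20) and the weakly counted mt-Nd6 (0.48) were not. The median was 0.84 over the 7 complex I and 0.24 over the 3 complex IV genes.

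These calls depended in part on single libraries. Without libraries 5 and 7, which leaves 1 library in each SP group, the log2 FC was 1.30 for mt-Nd2, 1.05 for mt-Nd1 and 1.05 for mt-Nd3. Fewer mitochondrial members were called than in the main fit, and fewer of all genes as well. The same held without library 5 alone and without library 9 alone. The calls of mt-Nd4, mt-Atp6 and mt-Atp8 were lost without libraries 5 and 7, and these losses need not be particular to these genes. Those of mt-Atp6 and mt-Atp8 were also lost under RLE scaling.

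Of the 14 nuclear members lower in SP Gr-1hi cells, 9 belong to complex I (Ndufv3, Ndufa8, Ndufa1, Ndufb7, Ndufa11, Ndufa3, Ndufa9, Ndufa13 and Ndufb8), 2 to complex III (Uqcr10 and Uqcrq) and 3 to complex V (Atp5pb, Atp5h and Atp5j). Ndufv3 had the largest decrease, with a log2 FC of -0.93 (SE 0.184, edgeR adjusted p = 0.00681) and the CPM given above. Ndufa8 (chr2:36036326-36049406, minus strand), an accessory subunit of the intermembrane side, was at 41.4 and 43.6 CPM in BM Gr-1hi, 27.7 and 28.9 in SP Gr-1hi, 38.9 and 38.5 in BM Gr-1lo, and 37.3 and 35.0 in SP Gr-1lo cells. SP Gr-1hi was below every other library. The log2 FC was -0.59 for Ndufa8 (SE 0.0872, edgeR adjusted p = 0.00194) and -0.56 for Ndufa1 (SE 0.133, edgeR adjusted p = 0.0138).

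The number of nuclear members called lower varied with the setting, being 42 under RLE scaling and 45 with DESeq2. Of all genes, 38.1% and 38.7% were called in either direction in these settings, against 34.0% in the main fit. The number was smaller without libraries 5 and 7 and also moved with each library left out. With each library left out, the nuclear median was -0.37 to -0.23. Atp5g2, the only nuclear member called higher, had a log2 FC of 0.30 (SE 0.1004, edgeR adjusted p = 0.0472), and that call was lost under RLE scaling and without any single library.

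**Figure D5:**
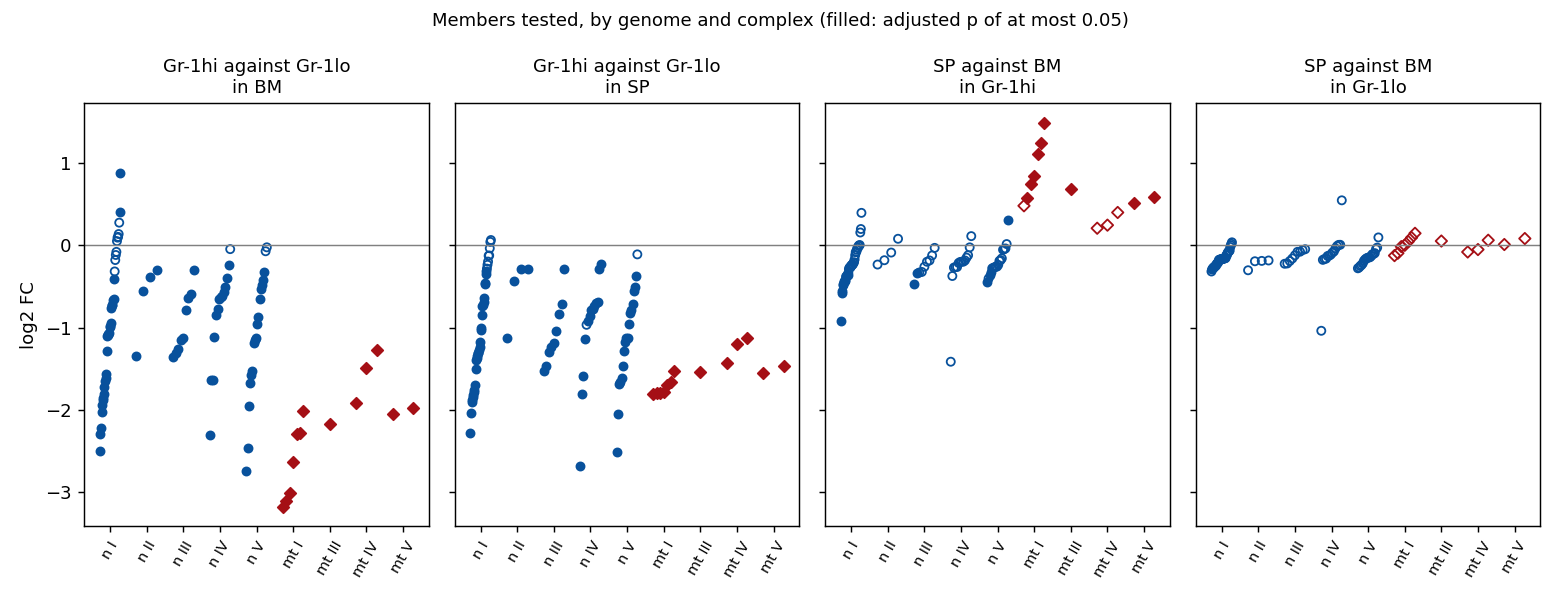
Fitted log2 FC of the 95 tested members in the 4 comparisons, by genome (n, nuclear, circles; mt, mitochondrial, diamonds) and complex; filled symbols have an adjusted p of at most 0.05 in edgeR's quasi-likelihood test. The mitochondrial members lie below most nuclear ones between the subsets (medians -2.17 and -0.86 in BM), and above them between SP and BM Gr-1hi cells (0.58 and -0.24).

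Marker lists also moved between the tissues in Gr-1hi cells, where 20.1% of all genes were higher in SP and 13.9% lower. In Gr-1lo cells these shares were 4.88% and 0.697%. All 14 B cell markers found in the table (such as Cd79a) were higher in SP, at a summed 435 to 631 CPM against 34.1 to 36.8 in BM. Of 12 T cell markers 11 were higher (93.6 to 152 against 7.93 to 10.9), of 8 tested erythroid markers 7 (220.1 to 737 against 36.6 to 44.5) and of 10 splenic macrophage markers 9 (926 to 1084 against 588 to 648). Of 8 secondary granule genes 5 were lower (34420.3 to 61889 against 78231 to 86791), and of 6 primary granule genes 3 (18.8 to 27.3 against 49.1 to 52.2). Of 8 monocyte genes 3 were higher and 1 lower, and of 8 mature neutrophil genes 1 was higher and 2 lower. Klf1 of the erythroid list and Tnfrsf17 of the plasma cell list were at 0 in BM Gr-1hi cells, and none of the listed markers was at 0 in SP Gr-1hi cells. Plasma cell markers were higher in 9 of 9 tested (314 to 430.2 against 105 to 108), NK cell markers in 7 of 10 (21.6 to 29.9 against 4.87 to 5.23) and dendritic cell markers in 5 of 10, with 1 lower (126 to 129 against 39.8 to 47.5). In Gr-1lo cells, SP also exceeded BM in 12 of 14 B cell (86.6 to 112 against 21.8 to 25.7), 12 of 12 T cell (32.4 to 50.03 against 2.36 to 2.57), 7 of 8 erythroid (168 to 234 against 8.26 to 8.86), 6 of 10 splenic macrophage (185 to 196 against 128 to 156) and 6 of 9 plasma cell markers (473 to 502 against 438 to 452). Cell cycle sums overlapped between the tissues in Gr-1hi cells (408 to 507 against 449 to 685). In Gr-1lo cells they were lower in SP (2501 to 2548 against 3037 to 3422), with 0 of 16 genes called. Primary granule sums were also lower in SP Gr-1lo cells (1216 to 2174 against 3281 to 3318, 1 of 6 called), as were monocyte sums (6546 to 6657 against 9016 to 9909, 0 of 8 called). Of 8 secondary granule genes 3 were higher there. The part of these lists in the differences of the members was not tested.

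The third question is whether the tissue difference depended on the subset. In the interaction of tissue and subset, 4 of 13 mitochondrial members were higher and 1 of 82 nuclear members was lower, beside 10.3% and 6.08% of all genes tested. The log2 interaction was 1.44 for mt-Nd2 (SE 0.188, edgeR adjusted p = 0.00377), 1.37 for mt-Nd1 (SE 0.217, edgeR adjusted p = 0.00659), 1.21 for mt-Nd3 (SE 0.196, edgeR adjusted p = 0.00727) and 0.63 for mt-Cytb (SE 0.170, edgeR adjusted p = 0.0399). SP exceeded BM for these genes in Gr-1hi by more than in Gr-1lo cells, where the log2 FC was 0.04 for mt-Nd2 and -0.13 for mt-Nd1, neither of them called. Without libraries 5 and 7 the calls of mt-Nd1, mt-Nd2 and mt-Nd3 remained (log2 1.06, 1.20 and 1.05) and that of mt-Cytb was lost. Ndufa8 had a log2 interaction of -0.49 (SE 0.122, edgeR adjusted p = 0.0317), which did not pass without libraries 5 and 7. That fit has 1 library in each SP group and called fewer of all genes as well, so these losses need not be particular to these genes. The median interaction was 0.51 over the mitochondrial and -0.07 over the nuclear members.

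Other genes of mitochondrial biology were read from lists. In BM, genes that build or serve the respiratory chain were mostly lower in Gr-1hi cells, beside 41.2% of all genes: 33 of 44 assembly factors of complexes I to V (4 higher), 17 of 18 genes of mitochondrial RNA processing (0 higher), 69 of 78 mitochondrial ribosomal proteins (2 higher), 9 of 11 translation factors (0 higher), 19 of 23 import proteins and chaperones (2 higher) and 16 of 18 genes of the TCA cycle and pyruvate dehydrogenase (2 higher). Of the listed regulators, 8 of 13 were higher and 4 lower. Carriers were mixed, with 7 of 18 higher and 8 lower. Of replication and transcription genes 5 of 18 were higher and 11 lower. Of electron carriers and coenzyme Q genes 4 of 19 were higher and 13 lower, and of antioxidant entries 2 of 10 were higher and 6 lower. In SP, where 37.8% of all genes were lower, the counts were 36 of 44 assembly factors, 17 of 18 RNA processing genes, 70 of 78 ribosomal proteins, 9 of 11 translation factors, 20 of 23 import genes and 16 of 18 TCA cycle genes lower. Carriers in SP had 6 of 18 higher and 8 lower, and replication and transcription genes 5 of 18 higher and 10 lower. In BM, the medians of the lists from assembly factors to the TCA cycle ran from -1.92 for translation factors to -0.92 for the TCA cycle. That of the regulators was 0.90 and that of the carriers 0.21. In SP, the medians of the same lists ran from -1.60 for import proteins and chaperones to -0.99 for the TCA cycle, with 0.55 for the regulators and -0.36 for the carriers.

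Between SP and BM Gr-1hi cells, where 20.1% of all genes were higher and 13.9% lower, the shares called higher among assembly factors, ribosomal proteins, translation factors and TCA cycle genes were near that of all genes, and the list medians ran from -0.22 (carriers) to 0.19 (replication and transcription). In RNA processing and decay 8 of 18 were higher and 2 lower, with the largest increases in Fastkd2 (log2 FC 2.48), which binds mitochondrial RNA, and Prorp (2.00), the protein-only RNase P that cuts tRNAs from the primary transcript. In replication and transcription 5 of 18 were higher and 2 lower, with Top1mt (2.43), the mitochondrial topoisomerase, and Polrmt (1.53), the mitochondrial RNA polymerase, in front. Of 44 assembly factors 8 were higher and 4 lower, led by Ndufaf4 (2.61) and Ndufaf2 (1.68), both of complex I. Of 13 tested regulators 4 were higher and 1 lower, led by Ppargc1b (2.98), a coactivator of respiratory genes, and Myc (2.37). Of 78 ribosomal proteins 15 were higher and 6 lower (Mrpl52 2.29, Mrps28 2.07, Mrpl23 -0.84), and of 23 import genes 6 were higher and 3 lower (Timm9 2.36, Hspe1 2.05).

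The remaining lists were mixed. Of the 18 TCA cycle genes 4 were higher, led by Suclg2 (1.47) and Idh3a (1.28), and 4 lower, led by Mdh2 (-0.66) and Dlst (-0.58). Of 18 carriers 2 were higher, the ADP/ATP carrier Slc25a4 (2.71) and the aspartate and glutamate carrier Slc25a13 (0.94), and 8 were lower, led by the pyruvate carrier subunit Mpc2 (-0.66) and the outer membrane channel Vdac2 (-0.66). Electron carriers and coenzyme Q genes had 2 of 19 higher, Coq8a (2.94) and Coq2 (1.42), and 2 lower, and translation factors had 2 of 11 higher (Tsfm 1.24 and Mtfmt 0.68). Of 10 antioxidant entries, in which Nnt is listed under 2 gene IDs, 3 were higher and 4 lower. In Gr-1lo cells no list of the 11 had more than 2 genes called in a direction.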

How the data were processed

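Poly(A) RNA of sorted cells was sequenced in 8 libraries. According to the methods of the study, reads were trimmed with Sickle after FastQC, aligned with STAR to GRCm38.p6 and counted per gene with featureCounts (GENCODE M24), and the authors deposited the raw counts used here. The members and all gene lists were chosen with earlier results of these data known.

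Counts were tested with the quasi-likelihood test of edgeR 4.0.16 in R 4.3.3 (robust, TMM scaling, filterByExpr), in 1 fit of all 8 libraries with a term per group, which leaves 4 residual degrees of freedom. Adjustment followed Benjamini and Hochberg over 17650 genes, and a gene was called at an adjusted p of at most 0.05. TPM used gene lengths of GENCODE M21, which held 53947 of the 54188 gene IDs and all 104 members, and promoters came from RefSeq. The motif cores of NRF1 and YY1 were shortened to 8 letters after a longer form had been searched, in which the members' shares and those of all genes were lower. Alternatives were RLE scaling, TMM without mitochondrial genes, no filter, DESeq2 1.42.0, an exact test (edgeR) of TPM after quantile normalization with limma 3.58.1, only the libraries compared, and each library left out. Without libraries 5 and 7, and TMM without the chromosome 1 copies, were added after the data were seen. The fits were tested on simulated data.

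Genes named with values were all mitochondrial members, the most abundant nuclear member of each complex, up to 3 called nuclear members each way per comparison, complex II, subunit c, Cox7a2l, the isoforms, the label checks, and up to 2 genes each way per other list between SP and BM. Other members are listed only as part of a count, and some values are not reported here. Members with a processed pseudogene, such as Ndufb4 with Ndufb4c, may share reads, so their counts are uncertain.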

Additional observations from a re-analysis of the deposited data

Results flagged for a closer look

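The difference between SP and BM differed between the Gr-1hi and Gr-1lo subsets, by the interaction term itself (quasi-likelihood test of edgeR, adjusted p of at most 0.05), for 4 mitochondrial members and 1 nuclear member. The log2 interaction was 1.44 for mt-Nd2, 1.37 for mt-Nd1, 1.21 for mt-Nd3 and 0.63 for mt-Cytb, so that SP exceeded BM by more in Gr-1hi cells. It was -0.49 for Ndufa8, which was lower in SP by more in Gr-1hi cells. Without libraries 5 and 7, the calls of mt-Cytb and Ndufa8 were lost, and fewer of all genes were called as well. No group has the 4 samples that a test for a single deviating library needs.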

How the results depend on the processing

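The lower levels in Gr-1hi cells held for all 13 mitochondrial members in BM and in SP under each alternative run on their counts of calls, whereas the nuclear counts between SP and BM moved. Nuclear members called lower in SP Gr-1hi cells (14) numbered 42 under RLE scaling and 45 with DESeq2. They numbered 5 with only the libraries compared and 1 with the exact test on quantile-normalized TPM. Of all genes, 38.1%, 38.7%, 24.4% and 6.26% were called in either direction in these settings, against 34.0% in the main fit. The count also moved without libraries 5 and 7 and with each library left out. Nuclear members called higher there (1) numbered 0 under RLE scaling, DESeq2, the exact test and only the libraries compared, and moved with libraries left out. The mitochondrial members called higher there (9) numbered 4 to 9 with each library left out. In Gr-1lo cells, nuclear members called lower (0) numbered 1 with no filter, 4 with DESeq2 and 1 with only the libraries compared. Nuclear members higher in BM Gr-1hi cells (2) numbered 5 under RLE scaling, 4 with DESeq2 and 1 with the exact test, and 1 to 4 with each library left out. In the interaction, nuclear members called lower (1) numbered 2 under RLE scaling, 3 with no filter, 3 with DESeq2 and 0 without libraries 5 and 7, and 0 to 8 with each library left out, nuclear members called higher (0) 0 to 1, and mitochondrial members called higher (4) 10 with no filter. The exact test moved the medians to -1.11 (nuclear, BM), -2.93 (mitochondrial, BM) and -2.09 (mitochondrial, SP), and leaving out libraries 5 and 7 moved the last to -1.85. The ratio of the genomes was 3.32 (BM Gr-1hi), 5.39 (SP Gr-1hi), 7.10 (BM Gr-1lo) and 7.93 (SP Gr-1lo) in TPM, and 2.67, 4.07, 4.92 and 5.51 with the chromosome 1 copies added. Of the values of named genes, 2 changed sign with a call on either side: Ndufa1 in BM between subsets was -0.37 with the exact test, and Ndufv3 in SP was -0.33 without library 6, in a range of -0.33 to 0.29. A further 95 changed sign without a call on either side, such as Ndufb7 in SP between subsets (-0.12 to 0.18 with each library left out) and mt-Co1 between SP and BM Gr-1hi cells (-0.10 to 0.38). Of the rest, 2188 kept sign and side of the threshold, and 51 gained and 82 lost the call with the same sign. The cause of these changes was not tested.

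With 2 libraries per group, a left-out library leaves 1, which is then assumed to vary like the other groups. The share of all genes called also moved with the library left out, so a changed count need not be particular to the members. No paired analysis was possible because the library numbers 5 to 12 are not shared between groups. The exact test and the fit of only the libraries compared were not run for the interaction. Nuclear members lower in SP Gr-1hi cells numbered 49 without library 6, 29 without library 9 and 9 without library 7, and mitochondrial members higher there 5 without library 5 and 4 without library 9. The count of nuclear members higher there was 2 without library 10 and 0 without any other. Nuclear members lower in the interaction numbered 8 without library 6, 2 without library 5 and 0 without library 7, 8, 11 or 12. The count of nuclear members higher in BM Gr-1hi cells was 4 without library 5 or 6 and 1 without library 11. Whether reads of the mitochondrial genes with a chromosome 1 copy were counted at both places was not tested.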

Other observations

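The mitochondrial ribosomal RNAs, which are not members and are counted here in poly(A) libraries, went against the mitochondrial messenger RNAs between the subsets. mt-Rnr1, the small ribosomal RNA, was at 328 and 469 CPM in BM Gr-1hi, 379 and 391 in SP Gr-1hi, 133 and 119 in BM Gr-1lo, and 114 and 143 in SP Gr-1lo cells. mt-Rnr2, the large ribosomal RNA, was at 812 and 1052 in BM Gr-1hi and 967 and 965 in SP Gr-1hi cells, against 183 to 227 in the Gr-1lo libraries. Together they came to 22.9% and 22.8% of the summed CPM of the 13 mitochondrial members in BM Gr-1hi, 16.3% and 19.1% in SP Gr-1hi, and 1.57% to 1.76% in the Gr-1lo libraries. Both RNAs were higher in every Gr-1hi library than in every Gr-1lo library, whereas the 13 mitochondrial members were lower. These genes were chosen after their values were seen, and no cause was tested.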
